A study of Mus musculus with 49 samples.

Results

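The Hox genes of paralog groups 6, 7 and 8 were described in single cells of the embryonic mouse kidney. The members were the rows of the expression table whose symbol was Hoxa6, Hoxb6, Hoxc6, Hoxa7, Hoxb7, Hoxc8 or Hoxd8, 7 of 13093 genes and 7 of the 32 Hox genes in the table. Of the 8 mouse genes of these groups, Hoxb8 was not analysed here. The table holds genes that exceeded 3 RPKM in at least 1 cell, so each member had to be high in at least 1 cell to be present. RPKM, reads scaled by gene length and by the mapped reads of the cell, were computed by the authors, so that levels of different genes are compared per length, and a gene counts as detected at 1 RPKM or more.

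The 49 cells came from the metanephric mesenchyme of embryos at 11.5 days post coitum (Theiler stage 19), on a mixed strain background and of both sexes. All embryos carried the Tg(Crym-EGFP)82Gsat transgene, in which Crym regulatory sequence drives EGFP, and no cells without the transgene were sequenced for comparison. The dissection followed the fluorescence around the ureteric bud and took some cells beyond its edge. Cells were captured and amplified on a Fluidigm C1 chip. No embryo or litter is named, so all cells are treated as 1 sample, and values are described with no p-value. Intervals on shares of cells are exact (Clopper-Pearson) 95% binomial intervals and cover counting error only.

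Hox genes encode homeodomain transcription factors that give cells a position along the body axis. In mammals they lie in 4 genomic clusters, HoxA to HoxD, and genes at corresponding places in the clusters are paralogs with related proteins. Genes nearer one end of a cluster are active further towards the head, and those nearer the other end further towards the tail. Groups 6 to 8 are best known for patterning the thoracic vertebrae and ribs, whereas group 11 is the set required for the metanephric kidney. The nephron progenitors of the mesenchyme are marked by Six2 and the stromal progenitors by Foxd1, both transcription factor genes. The microRNA genes of the miR-196 family also lie in Hox clusters, and their products are known to silence Hox messages in the mouse embryo.

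The miR-196 sequences and their matches in the members are shown because they are the best known control of Hox messages by sequence. The mature forms, from RefSeq (GRCm38.p6), are printed with the seed, bases 2 to 8, in capitals.
mmu-miR-196a-5p: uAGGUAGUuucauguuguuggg
mmu-miR-196b-5p: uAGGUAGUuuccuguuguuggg
Both share the seed, and counted from 1 at the 5′ end they differ by A12C. The seed pairs with ACTACCT, which was searched on the transcript strand of the 3′ UTRs of protein coding transcripts (GENCODE M21, GRCm38). Among genes with a 3′ UTR, 1377 of 20997 (6.56%) held it, and 4 of the 7 members did. Hoxa7 held 4 matches, Hoxc8 held 2, and Hoxb6 and Hoxb7 held 1 each. One of the Hoxa7 matches and all of the others are printed here with the 7 paired bases in capitals.
Hoxa7 (chr6:52215400-52215427, minus strand): tgcgcaggcacagccaaaatACTACCTa
Hoxb6 (chr11:96301367-96301394, plus strand): agccactggaaggagcacatACTACCTa
Hoxb7 (chr11:96289778-96289805, plus strand): ttaacactgtaaaaaaatatACTACCTa
Hoxc8 (chr15:102993727-102993754, plus strand): tgataataaatctttaacatACTACCTa
Hoxc8 (chr15:102992970-102992997, plus strand): gaatgacactcacaactctaACTACCTg
No match was found in Hoxa6, Hoxc6 or Hoxd8, which says only that these letters are not in the annotated 3′ UTRs. The match is a description of sequence, and whether it is used in these cells was not measured. The miRNA precursor Mir196b was at 1 RPKM or more in 1 cell, cell 4 at 36.1 RPKM, and Mir196a-2 in 1 cell, cell 13 at 12.0 RPKM. The mature products are not captured by a library of this kind.

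The members ranged from a gene found in nearly every cell to genes found in a small minority. Hoxc8 was detected in 45 of 49 cells, Hoxb6 in 35 and Hoxd8 in 31. Hoxa7 was found in 18 cells, Hoxb7 in 15, Hoxc6 in 12 and Hoxa6 in 9. The median gene of the whole table was detected in 16 cells.

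**Figure D1:**
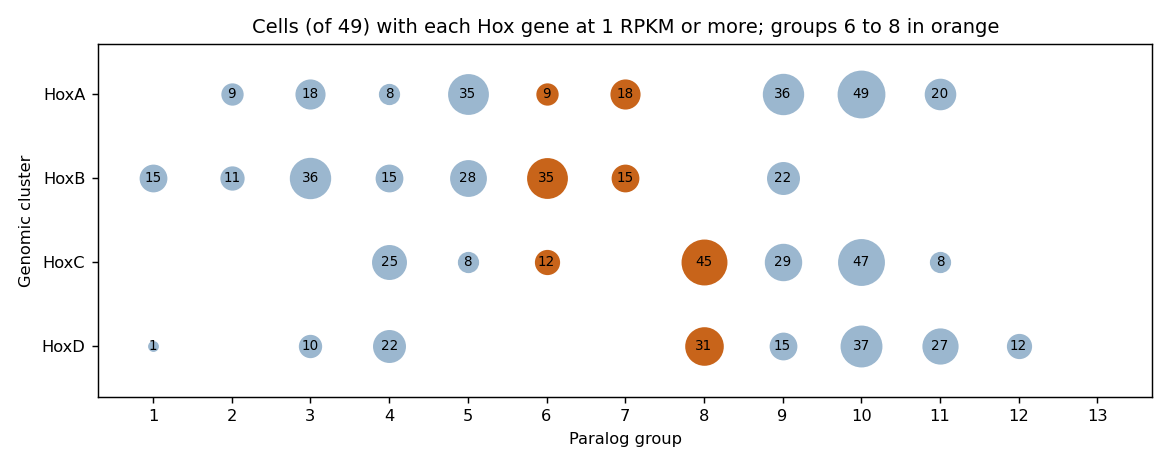
Number of the 49 cells that detected each Hox gene at 1 RPKM or more, by genomic cluster (rows) and paralog group (columns); circle area grows with the number, which is printed in it, and groups 6 to 8 are orange. Blank places are either no mouse gene or a gene not analysed here. Hoxc8 stands at 45 cells and Hoxb6 at 35, while Hoxa6 stands at 9.

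Group 8 was the most widely found of the 3 groups. Hoxc8, which patterns the thoracic skeleton and the motor neurons of the forelimb level, lies on chromosome 15 (102820970 to 102824685 in mm9; gene ID 15426). It ranged from 0.182 RPKM to 122 RPKM in cell 7, a library with few reads, with a median of 15.3 RPKM. It was the one member listed at 0 in no cell, and its share of detecting cells was 91.8% (80.4 to 97.7%). Cell 10 followed with 108 RPKM and then cell 17 with 85.4 RPKM, so that the top of the range did not rest on cell 7.

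Hoxd8, which acts with the other group 8 genes in patterning the axial skeleton, lies on chromosome 2 (74543546 to 74545364; gene ID 15437). It was found in 63.3% of cells (48.3 to 76.6%) and listed at 0 in 15. Its median over all cells was 6.11 RPKM, and in the cells that detected it 43.1 RPKM, the highest such median of the members. Cell 50 was highest with 238 RPKM, followed by cell 44 with 184 RPKM and cell 25 with 154 RPKM. Of its 31 detecting cells, 22 had at least 10 RPKM. Hoxd8 was therefore less widespread than Hoxc8 but higher where it was found.

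In group 6, Hoxb6 stood apart from its paralogs. Hoxb6, known for its activity in the lateral plate mesoderm of the hindlimb region, lies on chromosome 11 (96160485 to 96162883; gene ID 15414). It was found in 71.4% of cells (56.7 to 83.4%), with a median of 3.29 RPKM over all cells and 5.11 RPKM where detected. It was highest in cell 44, with 45.0 RPKM, and in cell 5, with 35.2 RPKM, and only 8 cells reached 10 RPKM. Hoxb6 was thus widespread and low.

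Hoxc6, which acts in the thoracic skeleton and in limb level motor neurons, lies on chromosome 15 (102829145 to 102842312; gene ID 15425). It was found in 24.5% of cells (13.3 to 38.9%), and was highest in cell 17 with 31.1 RPKM, cell 25 with 11.5 RPKM and cell 36 with 10.5 RPKM. Hoxa6, a gene of the thoracic skeleton on chromosome 6 (52156364 to 52158623; gene ID 15403), was found in 18.4% (8.76 to 32.0%). It never exceeded 21.3 RPKM, reached in cell 42, and 37 cells were listed at 0. The row of Hoxa6 lies within those of Hoxa3 (52119061 to 52163066) and 2700086A05Rik (52125216 to 52163596). The libraries keep no strand, so reads from these transcripts cannot be told apart where they overlap; of the 9 cells with Hoxa6, 5 also had Hoxa3 and 3 had 2700086A05Rik.

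Both group 7 genes were found in a minority of cells, and Hoxb7 reached the highest level of all members. Hoxb7, whose regulatory sequence is widely used to drive transgenes in the Wolffian duct and ureteric bud, lies on chromosome 11 (96147960 to 96151477; gene ID 15415). It was found in 30.6% of cells (18.3 to 45.4%), and 12 of those 15 cells had 10 RPKM or more. Cell 2 was highest with 271 RPKM, followed by cell 44 with 164 RPKM and cell 11 with 135 RPKM, against a median of 31.4 RPKM in the detecting cells. The lowest of these cells had 3.25 RPKM, and 28 cells were listed at 0. Hoxa7, a gene of the thoracic vertebrae on chromosome 6 (52165623 to 52170389; gene ID 15404), was found in 36.7% (23.4 to 51.7%). Its median was 8.95 RPKM where detected and its highest value 56.6 RPKM in cell 50.

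Since Hoxb7 is known from the ureteric bud, its cells were set beside the 11 genes of the ureteric bud list, among them Ret, the Gdnf receptor gene. The 15 cells with Hoxb7 had 0 to 2 of these genes, 8 of the 15 had none, and Ret was detected in none of them. The 34 other cells had 0 to 10 of these genes, 25 of the 34 had none, and Ret was detected in 1. In the cells with Hoxb7 the summed level on this list ranged from 0 to 154 RPKM with a median of 0.701 RPKM. In the 34 other cells it ranged from 0 to 817 RPKM with a median of 0.202 RPKM. The 1 cell that detected 10 ureteric bud genes, cell 25, had Ret at 59.6 RPKM and Hoxb7 at 0.790 RPKM, below the threshold. The same cell had Hoxd8 at 154 RPKM and Hoxc6 at 11.5 RPKM. Cell 27, in which all 8 endothelial genes analysed were detected, had Hoxd8 at 19.8 RPKM, Hoxb6 at 3.03 RPKM and Hoxc8 at 1.43 RPKM.

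Depth differed little between most cells. Relative to the median cell, the number of reads ran from 0.693 to 1.52 in 47 of the cells, while cell 3 stood at 0.0346 and cell 7 at 0.0462. No 2 cells held the same profile, with a highest Pearson correlation of log2(RPKM+1) of 0.667. A cell detected 3610 to 6510 genes, median 5210. Of the nephron progenitor list, all 15 genes were in the table and a median of 8 was detected per cell; of the stroma list, all 17 were and a median of 9 was. Of other cell types, 2 of 6 macrophage, 1 of 4 erythroid and 3 of 4 neural genes were in the table. The most detected in 1 cell were 2 macrophage genes in cell 27 and 3 neural genes in cell 7. The 1 erythroid gene was detected in more than 1 cell and was highest in cell 29, at 34.0 RPKM. A 0 may be a transcript that was missed, and the shares of cells depend on the threshold. That of Hoxb6 fell from 71.4% to 53.1% at 3 RPKM and 16.3% at 10 RPKM, that of Hoxc8 from 91.8% to 75.5% and 59.2%, and that of Hoxb7 stayed at 30.6% at 3 RPKM and was 24.5% at 10 RPKM. At 10 RPKM Hoxd8 was the second most widespread member with 22 cells, after Hoxc8 with 29, and Hoxb7 with 12 stood above Hoxb6 with 8.

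Every cell detected at least 1 of the members. The number per cell ran from 1 in cells 3, 4 and 32 to all 7 in cell 41, with a median of 3. In cell 41 the values were 1.24 RPKM for Hoxa6, 1.84 RPKM for Hoxc6, 5.90 RPKM for Hoxb6, 8.66 RPKM for Hoxa7, 10.4 RPKM for Hoxc8, 41.6 RPKM for Hoxd8 and 52.2 RPKM for Hoxb7. A group 8 gene was found in 48 cells, a group 6 gene in 40 and a group 7 gene in 26. All 3 groups were found in 22 cells, where independent detection would give 20.8. Members from all 4 clusters were found in 10 cells, where it would give 11.3.

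Most cells held about as many members as independent genes would give. The few cells with 5 or more were spread differently, though no like count for other sets of genes is given here. There were 11 cells with 2 or fewer members, against 10.8 expected from the 7 detection rates, 32 with 3 or 4, against 30.6. Cells with 5 members numbered 2, against 6.20, those with 6 numbered 3, against 1.29, and 1 cell held all 7, against 0.103. Together these are 6 cells, against 7.60. Cells 23, 30, 38 and 41, with 6 or 7 members, detected 6275, 5820, 6164 and 6008 genes, against a median of 5210. The number of members per cell had a Spearman correlation of 0.432 with the number of genes detected. The cause of the spread was not tested. In most cells 1 member made up the larger part of the summed level, with a median share of 63.3%. That leading gene was Hoxc8 in 17 cells, Hoxd8 in 17, Hoxb7 in 6, Hoxa7 in 5, Hoxb6 in 3 and Hoxa6 in 1. The summed level itself ran from 2.98 RPKM in cell 14 to 484 RPKM in cell 50, with a median of 56.9 RPKM.

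**Figure D2:**
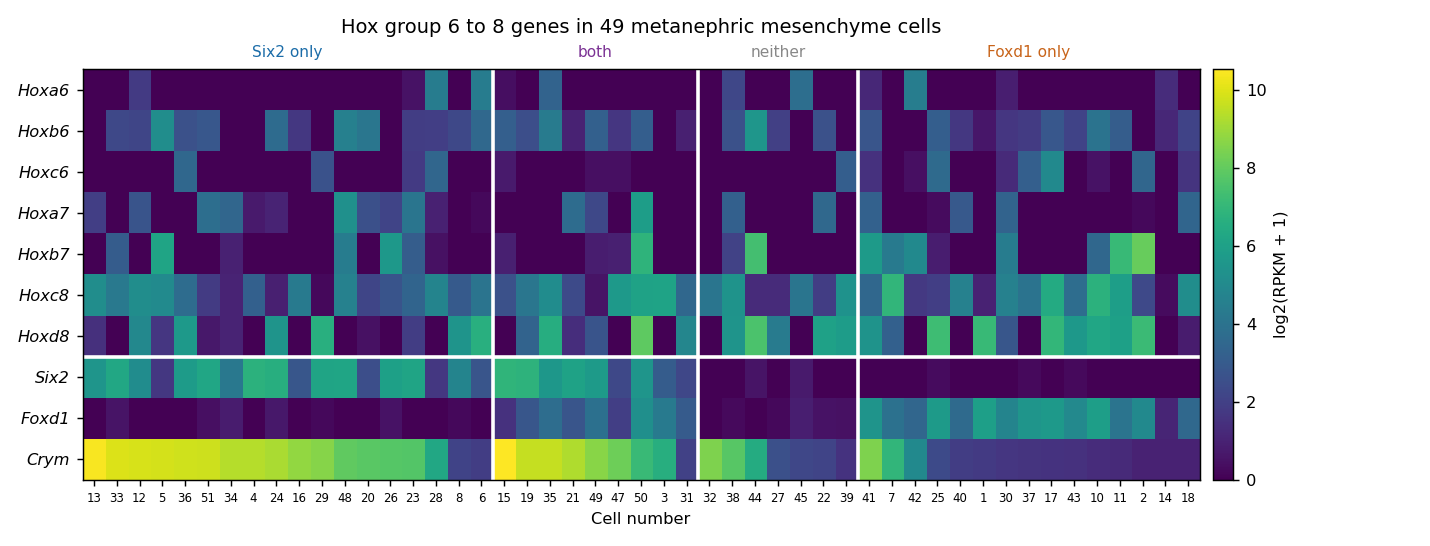
Level of each member, and of Six2, Foxd1 and Crym below the white line, as log2(RPKM + 1) in each of the 49 cells (columns, numbered). Cells are ordered by whether they detected Six2 only, both Six2 and Foxd1, neither or Foxd1 only, and within each class from high to low Crym. Hoxc8 is seen across all classes, whereas Hoxb7 and Hoxd8 are high in some cells of each class and at 0 in others.

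Whether the members are found in the same cells was asked for all 21 pairs. The count of cells with both genes was set beside the count that independent detection would give, and it was the larger in 12 of 21 pairs (57.1%). Over all pairs of a member with another gene detected in 5 to 44 cells, 57.8% were. The sets are not alike, since Hoxc8, found in 45 cells, counts among the 21 pairs but not among these partners. Of the pairs with Hoxc8, only that with Hoxb7 was above independence, in 15 cells (13.8). The pairs without Hoxc8 were thus above more often than the 21 together. The difference between observed and expected lay between -0.694 and 2.14 cells, with a median of 0.286, and was under 1 cell in size in 16 of the 21 pairs. The median over all partners was also 0.286.

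The pairs within a genomic cluster were then set beside those between clusters. Of the 3 pairs within a cluster, Hoxb6 and Hoxb7, whose rows lie 9008 bases apart, were found together in 11 cells (10.7 if independent). Hoxa6 and Hoxa7, 7000 bases apart, were found together in 3 cells (3.31), and Hoxc6 and Hoxc8, 4460 bases apart, in 11 cells (11.0). Of the 18 pairs between clusters, 11 were above independence. Of the 5 pairs of paralogs, 3 were: Hoxa7 and Hoxb7 in 7 cells (5.51), Hoxa6 and Hoxb6 in 7 (6.43), and Hoxb6 and Hoxc6 in 9 (8.57). Hoxc8 and Hoxd8, in 28 cells (28.5), and Hoxa6 and Hoxc6, in 2 (2.20), were not.

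The pair with the largest surplus was Hoxb6 with Hoxa7, found together in 15 cells (12.9 if independent). Both genes tracked the number of genes detected per cell, with Spearman correlations of 0.390 and 0.443, against a median of 0.153 over the 10246 genes found in 5 or more cells. The correlation of the pair was 0.128, and -0.0543 with the number of genes detected held constant. For each of these 2 genes the background was likewise high: 71.5% of partners were found with Hoxb6, and 69.8% with Hoxa7, in more cells than independence gives. That share was 48.8% for Hoxa6, 49.5% for Hoxc6, 53.8% for Hoxb7, 53.4% for Hoxc8 and 57.5% for Hoxd8.

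**Figure D3:**
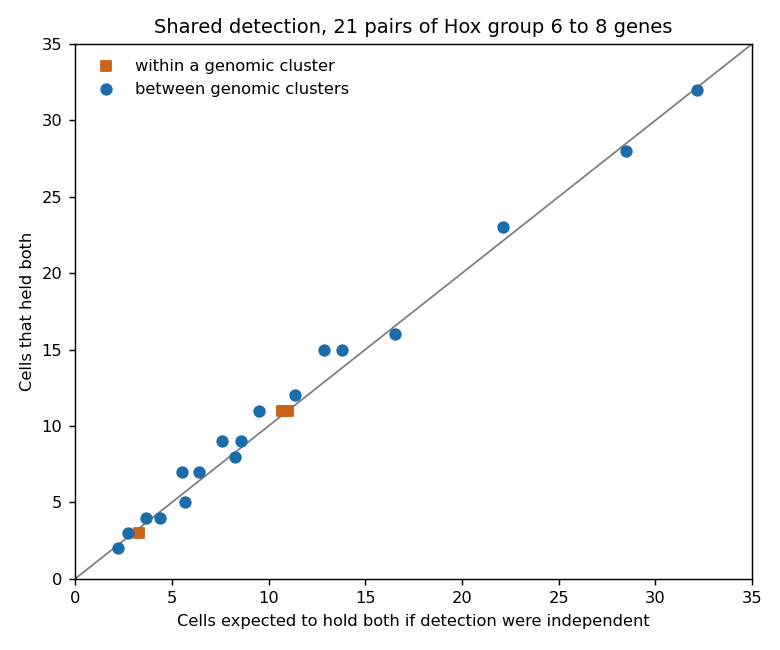
Count of cells with both genes of a pair (vertical) against the count that independent detection would give (horizontal), for the 21 pairs of members; the line marks equality. Orange squares are the 3 pairs within a genomic cluster and blue circles the 18 pairs between clusters; all lie within 2.14 cells of the line.

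Levels gave a similar picture. The Spearman correlation over the 49 cells had a median of 0.0786 over the 21 pairs and ran from -0.112 for Hoxa6 with Hoxd8 to 0.353 for Hoxb6 with Hoxd8. Over all partners of the members the median was 0.0338 and the interquartile range ran from -0.0657 to 0.134. Hoxb6 with Hoxd8 stayed at 0.356 with the number of genes detected held constant, and both were at their highest or second highest in cell 44. The cells share 1 chip and 1 dissociation and differ in depth, and these correlations are given as descriptions.

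The same count was made over all Hox clusters. Among the 28 Hox genes found in 5 to 44 cells, 51 of 83 pairs within a cluster (61.4%) and 183 of 291 pairs between clusters (62.9%) were shared by more cells than independence gives; 4 pairs of overlapping rows were left out. For all pairs of genes in the table found in as many cells, the share was 58.1%. Of the pairs that involve a member found in 5 to 44 cells, 21 of 35 within a cluster and 65 of 111 between clusters were above. The median correlation of level of these pairs was 0.0851 within and 0.0125 between clusters. At a threshold of 0.1 RPKM the shares over all Hox genes were 77.9% within and 65.6% between clusters. They were 54.2% and 56.2% at 3 RPKM, 53.8% and 51.5% at 5 RPKM, and 63.0% and 53.0% at 10 RPKM. The share within clusters was thus higher at 0.1, 5 and 10 RPKM and lower at 3 RPKM and the detection threshold. Over all partners of the members the share above independence was 53.8% at 0.1, 55.4% at 3, 52.9% at 5 and 49.9% at 10 RPKM. The share for all pairs of genes is not given at these thresholds.

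Some single neighbours, chosen after their values were seen, differed more. Hoxd8 was found with Hoxd11, a gene of group 11, in 13 cells (17.1 if independent) and with Hoxd10 in 20 cells (23.4). It was found with Hoxd4 in 11 cells (13.9), with Hoxd3 in 7 (6.33), with Hoxd9 in 11 (9.49) and with Hoxd12 in 9 (7.59). The correlation of level of Hoxd8 with Hoxd11 was -0.254. Hoxa7 was found with Hoxa3 in 4 cells (6.61). Hoxb6 was found with Hoxb9 in 19 cells (15.7), with Hoxb5 in 22 (20.0) and with Hoxb1 in 13 (10.7). With Hoxb4 it was found in 10 cells (10.7) and with Hoxb2 in 7 (7.86), both below independence. Of all partners of Hoxb6, 71.5% were above independence. Hoxc8 followed Hoxc4 in level, at a correlation of 0.347, although Hoxc4 lies beyond Hoxc6, for which the value was 0.0391. Hoxa6 was found in 8 cells with Hoxa5 (6.43), the nearest Hox row that it does not overlap.

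Relation to progenitor or stromal identity was first read from Six2, detected in 27 cells, and Foxd1, detected in 24. With Six2, 2 of the 7 members were found in more cells than independence gives, where 59.8% of all genes found in 5 to 44 cells were. These were Hoxa7, in 12 cells (9.92), and Hoxb6, in 20 (19.3). Hoxc6 was found with Six2 in 4 cells (6.61), Hoxb7 in 6 (8.27), Hoxd8 in 16 (17.1), Hoxa6 in 4 (4.96) and Hoxc8 in 24 (24.8). With Foxd1, 4 of the 7 were above, where 61.6% of all genes were. Hoxc6 was found with Foxd1 in 7 cells (5.88), Hoxb6 in 18 (17.1), Hoxd8 in 16 (15.2) and Hoxb7 in 8 (7.35). Hoxa7 was found with Foxd1 in 7 cells (8.82), Hoxa6 in 4 (4.41) and Hoxc8 in 22 (22.0). Over these 14 pairs the observed minus the expected count ran from -2.61 to 2.08 cells.

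Levels were then compared between the 18 cells with Six2 and not Foxd1 and the 15 cells with Foxd1 and not Six2. A difference in mean log2(RPKM+1) of at least 1 was the size used to name a gene, with no test, since all cells belong to 1 sample. Hoxd8 and Hoxb7 were lower in the Six2-only cells by that size, 2 of 7 members, where 9.88% of 10246 genes were. None of the 7 was higher by that size, where 11.1% of genes were. These calls depended on the pseudocount. At 0.1, Hoxa7 was higher by 1.55 and Hoxc6 lower, at -1.69, beside Hoxd8 at -1.97 and Hoxb7 at -1.83; at 10 none reached the size, with Hoxd8 at -0.90 and Hoxb7 at -0.68. With Six2 and Foxd1 read at 5 RPKM, Hoxc8 was also lower, at -1.01. On this log scale the change of low genes is understated.

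Hoxd8 in the Six2-only cells ran from 0 to 99.3 RPKM with a median of 1.40 RPKM, and in the Foxd1-only cells from 0 to 154 RPKM with a median of 41.6 RPKM. The ranges overlapped widely, and both classes held cells at 0. The mean of log2(RPKM+1) was 2.34 and 3.90, a difference of -1.57. It was found in 10 of 18 cells (55.6%, 30.8 to 78.5%) and 10 of 15 cells (66.7%, 38.4 to 88.2%), so the classes differed more in level than in detection. Leaving out any 1 cell gave differences from -1.85 to -1.33, the latter without cell 25, which held the ureteric bud genes.

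Hoxb7 ran from 0 to 69.5 RPKM in the Six2-only cells and from 0 to 271 RPKM in the Foxd1-only cells, with means of 1.32 and 2.60 and a difference of -1.28. It was found in 5 of 18 and 7 of 15 cells, and most cells of both classes were below 1 RPKM. The difference fell short of the size used without cell 2, at -0.89, or without cell 11, at -0.96, the Foxd1-only cells in which Hoxb7 was highest.

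The other members differed by less. Hoxc6 stood at a mean of 0.64 in the Six2-only and 1.37 in the Foxd1-only cells, and Hoxc8 at 3.31 and 3.94. Hoxa7 stood at 1.61 and 0.90, Hoxb6 at 2.16 and 1.81, and Hoxa6 at 0.62 and 0.52. The differences ran from -0.74 for Hoxc6 to 0.71 for Hoxa7. The median size of the difference over all 10246 genes was 0.51. Hoxb6, at 0.35, and Hoxa6, at 0.10, differed by less than that. Hoxc8 differed by -0.63, but by -0.41 without cell 7, a library with few reads. In the 9 cells with both genes Hoxc8 had a median of 16.6 RPKM and Hoxd8 of 5.60 RPKM, and in the 7 cells with neither 15.9 and 43.1 RPKM. The median number of genes detected was 4960.5 in the Six2-only, 5232 in the Foxd1-only, 5670 in the double and 4246 in the double negative cells.

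**Figure D4:**
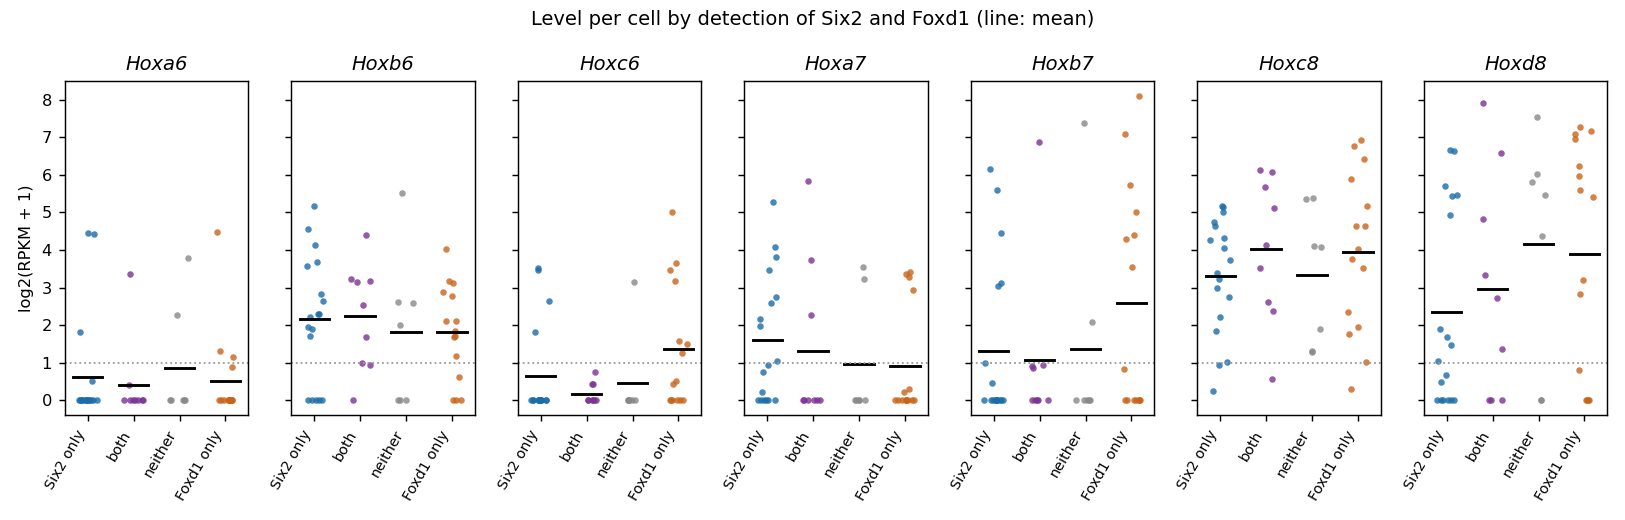
Level of each member as log2(RPKM + 1) in each cell (points), by whether the cell detected Six2 only (18 cells), both genes (9), neither (7) or Foxd1 only (15); bars are class means and the dotted line is 1 RPKM. Hoxd8 and Hoxb7 have lower means in Six2-only than in Foxd1-only cells, at 2.34 against 3.90 and 1.32 against 2.60, and every class of both genes holds cells at 0.

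Crym gave another division of the same cells. It marks the labelled domain and fell into a range above 10 RPKM in 30 cells and a range below it in 19. Hoxd8 was lower in the cells with high Crym, the only member that differed by at least 1, where 6.77% of genes were lower by that size and 7.02% higher. Its values ran from 0 to 238 RPKM with a median of 1.68 RPKM at high Crym and from 0 to 154 RPKM with a median of 47.7 RPKM at low Crym. At 10 RPKM it was found in 9 of 30 and 13 of 19 cells. The means of log2(RPKM+1) were 2.45 and 4.37, a difference of -1.92, and leaving out any 1 cell gave -2.16 to -1.76. Of all 10246 genes, 80 were as low or lower in that comparison. The median number of genes detected was close, at 5221 and 5176.

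Hoxb7 did not keep its direction in that division. Its mean was 1.93 at high Crym and 1.26 at low Crym, with 11 of 30 and 4 of 19 cells detecting it, and leaving out any 1 cell gave differences from 0.48 to 1.05, although its 2 highest values lay in a low cell and a high cell. Hoxa7 stood at 1.57 and 0.74, with 14 of 30 and 4 of 19 cells. Hoxc6 stood at 0.50 and 1.15, Hoxc8 at 3.61 and 3.69, Hoxb6 at 2.11 and 1.89, and Hoxa6 at 0.61 and 0.55. The Crym ranges and the Six2 and Foxd1 classes divide the same cells and are not independent of each other.

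The members were then set beside the marker lists as a whole. With the mean log2(RPKM+1) of the nephron progenitor list, Spearman correlations over the 49 cells were 0.281 for Hoxa7, 0.280 for Hoxb6, 0.0541 for Hoxb7, -0.0184 for Hoxa6, -0.0302 for Hoxc8, -0.231 for Hoxc6 and -0.233 for Hoxd8. With the stroma list they were 0.281 for Hoxc8, 0.270 for Hoxc6, 0.243 for Hoxd8, 0.142 for Hoxb7, 0.00527 for Hoxa6, -0.0153 for Hoxb6 and -0.0241 for Hoxa7. Over 10246 genes, 90% lay between -0.254 and 0.349 for the first list and between -0.264 and 0.348 for the second, so no member left the common range. The nephron progenitor score itself rose with the number of genes detected, at 0.342, and with that number held constant the values of Hoxa7 and Hoxb6 were 0.154 and 0.169. Their stroma values became -0.172 and -0.141, and Hoxc8 stood at -0.156 for the nephron progenitor and 0.211 for the stroma list. Those of Hoxd8 were -0.273 for the nephron progenitor and 0.234 for the stroma list.

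**Figure D5:**
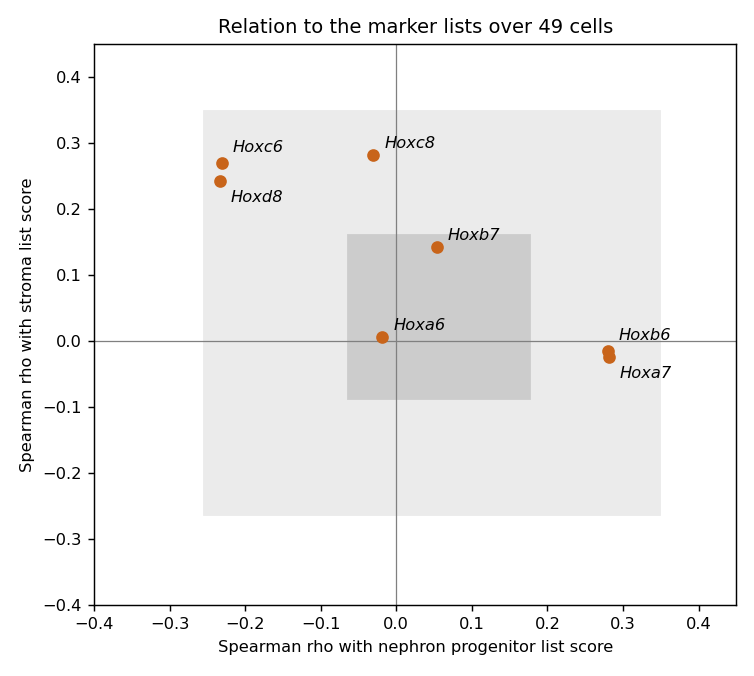
Spearman correlation of each member with the mean log2(RPKM + 1) of the nephron progenitor list (horizontal) and of the stroma list (vertical) over the 49 cells. The dark box spans the interquartile range and the light box the middle 90% of the 10246 genes found in 5 or more cells on each axis. Hoxc6 and Hoxd8 lie at the upper left and Hoxa7 and Hoxb6 at the right, and all members lie inside the light box.

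Single markers of the lists were also read one by one. Of 16 stroma genes found in 5 or more cells, 15 had a correlation above 0 with Hoxd8, where 54.1% of all genes found in 5 or more cells had, with a median of 0.176 and the highest for the chemokine gene Cxcl12 at 0.368. Of 14 nephron progenitor genes, 3 had one above 0, with a median of -0.181 and the lowest for the transcription factor gene Sall1 at -0.379. For Hoxb6 the counts were 6 of 16 stroma and 13 of 14 nephron progenitor genes (68.0% of all genes), and for Hoxa7 7 of 16 and 12 of 14 (71.6%). For Hoxc6 they were 13 of 16 and 4 of 14 (51.5%), led by the netrin gene Ntn1 at 0.496. For Hoxc8 they were 14 of 16 and 5 of 14 (57.9%), led by the retinoic acid receptor gene Rarb at 0.436. For Hoxb7 they were 13 of 16 and 8 of 14 (53.9%), and for Hoxa6 8 of 16 and 8 of 14 (55.0%). The genes of a list are read in the same cells, so the counts are not separate observations.

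The genes most like each member in level, among those found in 10 or more cells, were not other Hox genes. The first for each member were Nudt1 for Hoxb6, with a Spearman correlation of 0.618, 1500010J02Rik for Hoxa7 at 0.567, Prpf38a for Hoxc6 at 0.537, 0610009O20Rik for Hoxc8 at 0.519, Ywhae for Hoxb7 at 0.508, Znhit1 for Hoxa6 at 0.506 and Phpt1 for Hoxd8 at 0.481. These are the highest of about as many correlations as there are candidates, 8420 or 8421 per member, of which 5% exceeded 0.247 to 0.319. Of the 21 genes that made up the 3 highest for each member, 16 did so without the shallow cells 3 and 7 and 14 without cells 25 and 27.

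Cofactors with which Hox proteins bind DNA ranged from broadly present to rare. Meis1 was found in 49 cells at a median of 108 RPKM, Meis2 in 48, Meis3 in 27, Pknox1 in 26, Pbx2 in 22, Pbx3 in 14, Pbx4 in 8 and Pknox2 in 7. Among the cofactors named here, the correlation with the number of members per cell was highest for Pbx3, at 0.372, below that of the number of genes detected, at 0.432. Of the upstream regulators, 7 of 10 were in the table. Ezh2 and Suz12, which encode Polycomb proteins that keep Hox genes silent, were found in 45 cells each and Eed in 37, while Bmi1 was found in 24 and Cbx2 in 17. Cdx1, a homeobox activator of Hox genes, was found in 1 cell and the growth factor gene Gdf11 in 2.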

How the data were processed

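RNA-seq values of 49 single cells were used as deposited. Per the file headers the deposited values are RPKM, made by the authors with 1 column per cell. The submitters' processing notes list TopHat 1.4.1, DESeq and mm9, and the annotation and the tool that counted reads were not given in the sources used here. In all 13093 genes the deposited number of cells above 3 RPKM matched the values, and 0 value columns were unused. Whether row starts count from 0 or 1 is not given. The chemistry (SMARTer and Nextera XT, per the labels' protocols) keeps no strand and no molecular identifiers.

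Cells were matched to columns by cell number. No cell was filtered, no doublet caller was run (chambers were inspected for single cells, per the labels' protocols), and cells are not replicates. Total reads are unknown. Relative depth was taken from ratios to cell 1 among values below 8 RPKM, or below a higher cut where too few values were shared. It was read at the place where most ratios fell within 2e-05 of each other on the natural log scale. Detection was 1 RPKM or more, the pseudocount 1. Expected shared cells are the product of both counts over 49. Partners were genes found in 5 to 44 cells, differences and list correlations used genes found in 5 or more, and Crym ranges were divided at 10 RPKM. Partial correlations held the number of genes detected constant.

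The genes named were the members, the other Hox genes, cofactors, noncoding transcripts and regulators of fixed lists, marker lists, overlapping rows, and the 3 genes most correlated with each member, of which the first is printed. Of 16 noncoding transcripts listed, 5 were in the table; Hoxa11as was found in 38 cells, Mir10b in 4 and Mir10a in 2, beside the miR-196 precursors. Not every gene of these lists is reported here. Neighbouring Hox genes and single markers were chosen for the text after their values were seen. The members and lists were chosen with earlier results of these data known. Shared detection, differences of mean log2 level, Spearman correlations and relative depth were tested on simulated data first. The partial correlations, intervals and seed search were not. Python 3.11.15, numpy 2.4.6, scipy 1.17.1 and pandas 2.3.3 were used.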

Additional observations from a re-analysis of the deposited data

How the results depend on the processing

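Shares of cells rest on the threshold: detections over all members were 48.1% of the 343 member and cell values at 1 RPKM, 56.3% at 0.1, 39.1% at 3, 35.0% at 5 and 25.4% at 10. Members found with Six2 in more cells than independence gives numbered 2, also at 0.1 RPKM, but 3 at 3 and at 5 RPKM and 1 at 10 RPKM. The members differing by at least 1 between Six2-only and Foxd1-only cells numbered 2, but 4 with a pseudocount of 0.1 (Hoxa7 higher, Hoxc6, Hoxb7 and Hoxd8 lower), 0 with 10, 3 with classes read at 5 RPKM (Hoxc8 added, lower) and 1 with cells divided by Crym, where the difference of Hoxb7 turned to 0.67. With each cell left out in turn, an alternative chosen after seeing the data, the number was 1 to 2. The cause of these shifts was not tested. Leaving out cells 3 and 7, or cells 25 and 27, moved no count or share summarised here by more than 1.5 times. Counts of shared member pairs stayed within 1.5 times at all thresholds. Depth limits the rarer members: a 0 in cell 3 or 7 weighs less than in other cells. No paired analysis was possible because the cells form 1 group.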
